A study of Mus musculus with 9 samples.

Results

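Glycolysis and glucose uptake were followed through 32 genes, taken by symbol from the 55487 gene identifiers of the count table: the glucose transporters, the enzymes from hexokinase to lactate dehydrogenase, the regulators of phosphofructokinase, the lactate transporters and the pyruvate dehydrogenase kinases. The symbol Aldoa stands on 2 lines of the table; the longer gene was kept and the other line, with 0 to 13 counts per library, was left out. All 32 passed the filter on low counts and entered the tests. The libraries came from mouse cardiomyocytes, which contract the heart wall, as 3 groups of 3. The overexpression group had received AAV9-Firre, an adeno-associated virus vector carrying the long noncoding RNA Firre. The negative control had received the control vector of the same serotype, and the blank control is labelled as a control with no vector named. Strain, age, the promoter of the vector and whether replicates are separate animals or cultures are not stated in the labels. The titles call them biological replicates without saying more, so p-values reflect the spread among these libraries, part of which may be technical.

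Glycolysis turns glucose into pyruvate in the cytosol and yields ATP without oxygen; pyruvate then either enters the mitochondria through pyruvate dehydrogenase or is reduced to lactate. The adult heart mostly burns fatty acids and also takes up and oxidises glucose and lactate, whereas the fetal heart relies more on glycolysis. Several steps are carried by isozymes with different tissue patterns, and muscle has its own forms of glucose transporter, phosphofructokinase, phosphoglycerate mutase and enolase, while the heart is rich in the B form of lactate dehydrogenase.

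Levels are given as CPM, counts scaled to a common library size with TMM factors, which balance libraries on the bulk of their genes. Library depth was 15591542 to 22697016 counts in genes. Firre stood at 32.5, 34.4 and 32.7 CPM in the negative control and at 62.9, 69.7 and 62.6 CPM with AAV9-Firre, a log2 fold change of 0.97 (SE 0.07, adjusted p = 4.74e-13, edgeR). All 14 cardiomyocyte markers were detected and rose with Firre, by 0.22 to 1.73 on the log2 scale (median 0.69), and their summed level went from 40063 to 43210 CPM in the negative control to 63154 to 66634 CPM. Markers of other cells fell: 13 of 14 for fibroblasts (summed level 10357 to 10575 CPM against 4794 to 5355 CPM), 11 of 12 for endothelium (1497 to 1511 CPM against 644 to 670 CPM), 9 of 9 for smooth muscle and pericytes (2851 to 3252 CPM against 1422 to 1570 CPM) and 8 of 8 for epicardium (302 to 320 CPM against 104 to 110 CPM). For macrophages all 16 tested markers of 17 fell, from a summed 104 to 115 CPM to 15.3 to 18.5 CPM, with C1qa at 0 counts in the Firre libraries, at least 44.2-fold lower against a floor of 3 counts over the group. The share of counts from mitochondrially encoded genes was 6.23% to 6.80% in the blank control, 5.89% to 6.62% in the negative control and 7.07% to 8.07% with Firre. Most of these markers and this share differed between the Firre libraries and the controls. Every Firre comparison that follows uses the same libraries, and the part of the markers and this share in it was not tested. In such bulk libraries fewer cells of a type and less RNA per cell cannot be told apart.

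Against the negative control, 25 of the 32 genes were called with Firre, that is, had an adjusted p under 0.05 in edgeR's quasi-likelihood F test, beside 56.0% of all 15633 genes tested. Of these, 17 rose, against 27.5% of all genes, and 8 fell, against 28.4%. For 14 of the 32 (43.8%) the gene was called with a log2 fold change of at least 0.5 in size, as 29.5% of all genes tested were. The 3 Firre libraries did not overlap the 3 negative control libraries for those same 25 genes, and the share of all genes without overlap was 62.4%. The median log2 fold change of the 32 was 0.21, beside 0.00024 for all genes tested. The share of the 32 genes that rose was above that of all genes and the share that fell was close to it, with no test of that difference. The genes that rose included the muscle forms Pgam2, Eno3, Pfkm and Slc2a4 along with Ldhb and Pdk2, and those that fell included Slc16a3, Pfkfb3, Slc2a3, Eno1, Eno2 and Hk3.

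**Figure D1:**
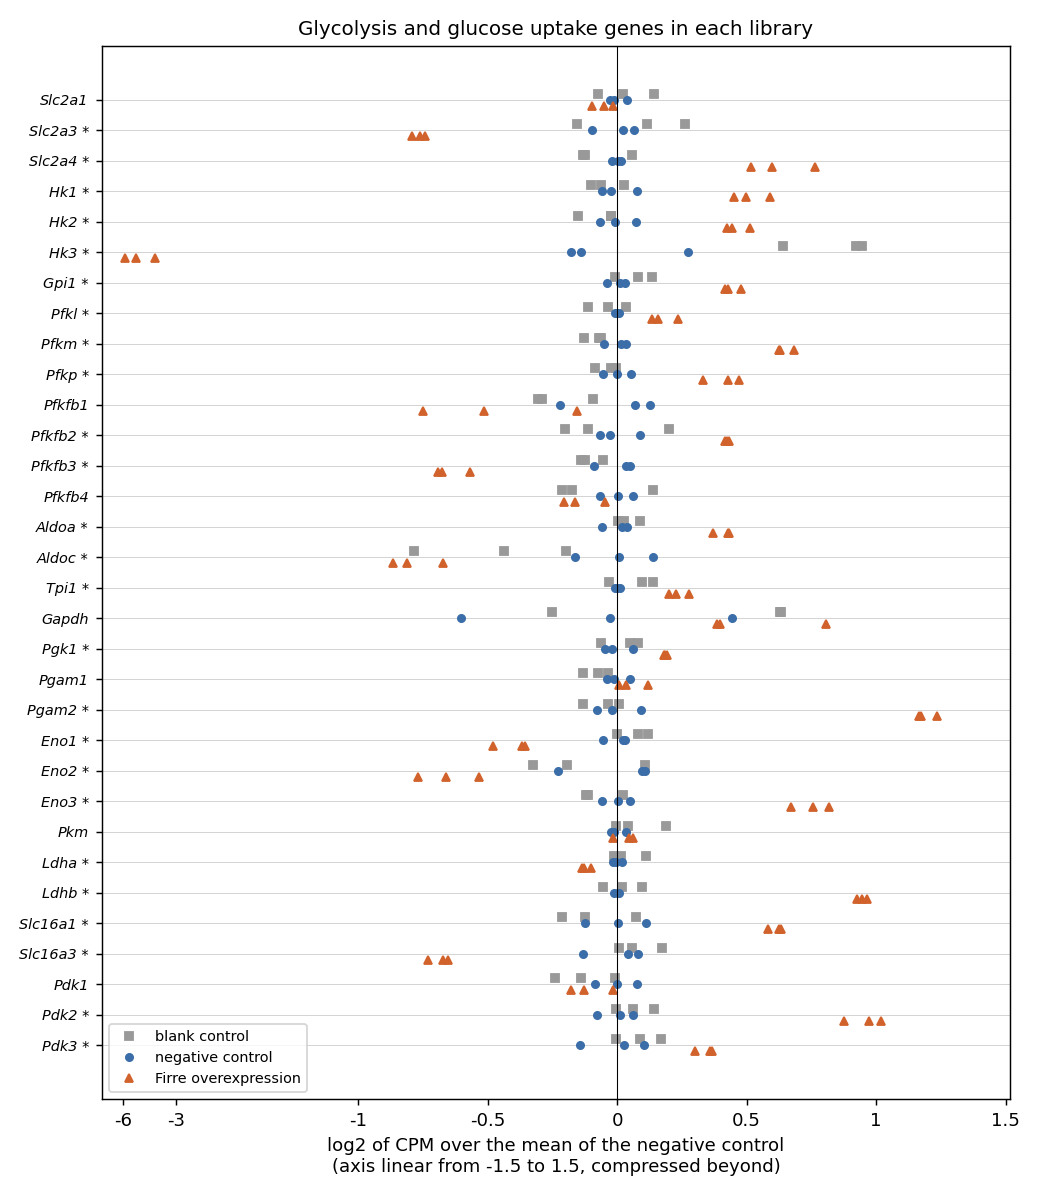
Each point is 1 library, plotted as the log2 ratio of its CPM to the mean CPM of the negative control, for the 32 genes in pathway order; squares are the blank control, circles the negative control and triangles Firre overexpression, and an asterisk marks an adjusted p under 0.05 (edgeR) for Firre overexpression against the negative control. The triangles stand clear of the circles in 25 rows, furthest to the right in Pgam2 (log2 fold change 1.19) and furthest to the left in Hk3 (-4.69), on an axis that is compressed beyond 1.5.

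The transcripts of the glucose transporters changed in their make-up, while uptake itself was not measured. Slc2a4, which encodes GLUT4, the insulin-responsive transporter of muscle and fat, read 50.6, 50.4 and 57.4 CPM in the blank control, 55.8, 54.5 and 55.3 CPM with the control vector and 93.6, 79.1 and 83.6 CPM with Firre. Every Firre library was above every control library, and the log2 fold change against the negative control was 0.63 (SE 0.06, adjusted p = 1.07e-09). Slc2a1 encodes GLUT1, the widely expressed basal transporter, and had 159, 137 and 146 CPM in the blank control, 141, 148 and 143 CPM in the negative control, then 142, 135 and 139 CPM with Firre. Those ranges overlapped and the gene was not called (-0.06, SE 0.05, adjusted p = 0.392). Slc2a3 encodes GLUT3, a high-affinity transporter best known from neurons. It was scarce at 6.96, 7.70 and 5.77 CPM in the blank control and 6.01, 6.73 and 6.53 CPM in the negative control, and it fell to 3.85, 3.79 and 3.71 CPM (log2 fold change -0.76, SE 0.15, adjusted p = 9.86e-05).

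Hexokinases trap glucose in the cell by phosphorylating it. Hk1, the broadly expressed form, had 418, 406 and 444 CPM in the blank control, 460, 429 and 419 CPM with the control vector and 615, 657 and 596 CPM with Firre, a log2 fold change of 0.51 (SE 0.05, adjusted p = 1.83e-10). Hk2, the form known from insulin-sensitive tissues such as muscle, went from 235, 222 and 214 CPM in the negative control to 320, 304 and 301 CPM (0.46, SE 0.05, adjusted p = 2.54e-09), and the blank control stood at 202, 220 and 220 CPM. Both rose by nearly the same factor, and the ratio of Hk1 to Hk2 per length was 1.36 ± 0.00997 in the negative control and 1.41 ± 0.0855 with Firre (SD, n = 3).

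Hk3, a hexokinase known mostly from cells of the blood lineages, went the other way and moved furthest of the 32. The gene lies on the minus strand of chromosome 13, from 55005985 to 55021385 (mm10). Its counts were 76, 121 and 105 in the blank control, 55, 80 and 54 in the negative control and 4, 2 and 1 with Firre, so the Firre value rests on 7 counts in all. As a level this was 4.85, 5.90 and 6.0 CPM, then 2.83, 3.76 and 2.76 CPM, then 0.202, 0.0903 and 0.0522 CPM. The log2 fold change was -4.69 (SE 0.37, adjusted p = 3.39e-12), and -5.31 without the Firre library with 4 counts, replicate 1. Macrophage markers were lower in the same libraries by a median log2 fold change of -4.20, the same when C1qa is set to its bound, and their part in the Hk3 result was not tested. Neutrophil markers were near 0 in every group: of 4 genes, S100a9, Ly6g and Retnlg had no counts in either control and S100a8 too had none with Firre.

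The next steps commit the sugar to breakdown. Gpi1, which isomerises glucose phosphate to fructose phosphate, rose from 717 ± 18.0 to 974 ± 23.2 CPM (SD, n = 3; log2 fold change 0.44). All 3 phosphofructokinase genes, the main control point of the pathway, were called higher. Pfkm, the muscle form, had 128, 124 and 129 CPM in the blank control, 138, 136 and 130 CPM in the negative control, then 208, 216 and 209 CPM with Firre, a log2 fold change of 0.65 (SE 0.05, adjusted p = 7.99e-13). Pfkp, named for platelets, went from 331, 307 and 319 CPM in the negative control to 429, 442 and 401 CPM (0.41, SE 0.05, adjusted p = 1.02e-08), with 301, 314 and 318 CPM in the blank control. Pfkl, the liver form, moved least, from 173, 174 and 174 CPM to 194, 204 and 191 CPM (0.18, SE 0.05, adjusted p = 0.00282), with 169, 160 and 178 CPM in the blank control. The order of the fold changes was therefore muscle, platelet and liver form, while exon bases of Pfkm shared with other genes made up 10.7% of its length and could carry some counts of Senp1 or Gm26513.

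The Pfkfb genes encode bifunctional enzymes that make and remove the fructose bisphosphate signal that activates phosphofructokinase, and they did not move as a group. Pfkfb3, a form with strong kinase activity that is induced by growth and low oxygen, had 45.8, 48.6 and 46.2 CPM in the blank control, 47.4, 52.3 and 51.6 CPM with the control vector and 31.3, 31.6 and 34.0 CPM with Firre. That fall did not overlap either control (log2 fold change -0.65, SE 0.07, adjusted p = 7.06e-10). Pfkfb2, the form typical of heart, rose from 12.5, 11.5 and 11.2 CPM to 15.7, 15.8 and 15.8 CPM (0.43, SE 0.10, adjusted p = 9.50e-04), with 10.9, 13.5 and 10.2 CPM in the blank control. Exon bases of Pfkfb2 shared with Gm29427 or Yod1 made up 19.5% of its length and could carry some of their counts. Pfkfb1, first described in liver and skeletal muscle, stood at 2.43, 2.78 and 2.40 CPM in the blank control, 3.24, 2.54 and 3.11 CPM in the negative control and, with Firre, 2.07, 1.76 and 2.66 CPM. It was not called (-0.46, SE 0.22, adjusted p = 0.0764), though without Firre replicate 3 it was (-0.62, adjusted p = 0.0342). Pfkfb4 was not called either, at 5.04, 3.95 and 4.06 CPM in the blank control, 4.78, 4.38 and 4.59 CPM with the control vector and 4.10, 3.97 and 4.44 CPM with Firre (-0.14, SE 0.16, adjusted p = 0.498).

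Aldolase splits the hexose into triose phosphates. Aldoa, the muscle form and the most abundant gene of the set per length, went from 1730, 1618 and 1705 CPM in the negative control to 2264, 2275 and 2176 CPM (log2 fold change 0.41, SE 0.04, adjusted p = 1.95e-09), with 1714, 1690 and 1791 CPM in the blank control. Aldoc, known from brain, was near the lower end of the levels. It had 3.51, 2.34 and 2.97 CPM in the blank control, 3.60, 4.05 and 4.44 CPM in the negative control, then 2.53, 2.21 and 2.30 CPM with Firre. It fell against the negative control (-0.78, SE 0.20, adjusted p = 0.0014) and was not called against the blank control (-0.31, SE 0.21, adjusted p = 0.213), whose libraries reached down into the Firre range. Tpi1, which interconverts the trioses, rose from 552 ± 4.0 to 650 ± 17.9 CPM (0.24, SE 0.05, adjusted p = 6.24e-05).

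Gapdh, the dehydrogenase that is often taken as a reference gene, could not be read from its own line. It held 57.8, 38.8 and 80.1 CPM with the control vector and 77.6, 103 and 77.0 CPM with Firre, with overlap (log2 fold change 0.55, SE 0.35, adjusted p = 0.230). Transcripts at 79 other loci matched its longest coding transcript at 95% identity or more over at least 150 bases, covering 88.0% of it, so the program that made the counts may have given its reads to a copy or dropped them. The copies held 1151 to 1633 CPM in all and 8 of them were above 1 CPM. Most of that lay at Gm13394, a processed pseudogene on the minus strand of chromosome 2 from 28933610 to 28934609 (mm10), with 1202, 1132 and 1101 CPM in the negative control, then 1375, 1510 and 1345 CPM with Firre. Summed with its copies, Gapdh reached 1323 ± 108 CPM in the blank control, 1293 ± 47.7 CPM with the control vector and 1612 ± 108 CPM with Firre (SD, n = 3), and the log2 fold change of the sum was 0.32 (SE 0.05, adjusted p = 2.05e-05). The sum was chosen after seeing the data. It moved in the same direction as Aldoa and Tpi1, the neighbouring steps.

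**Figure D2:**
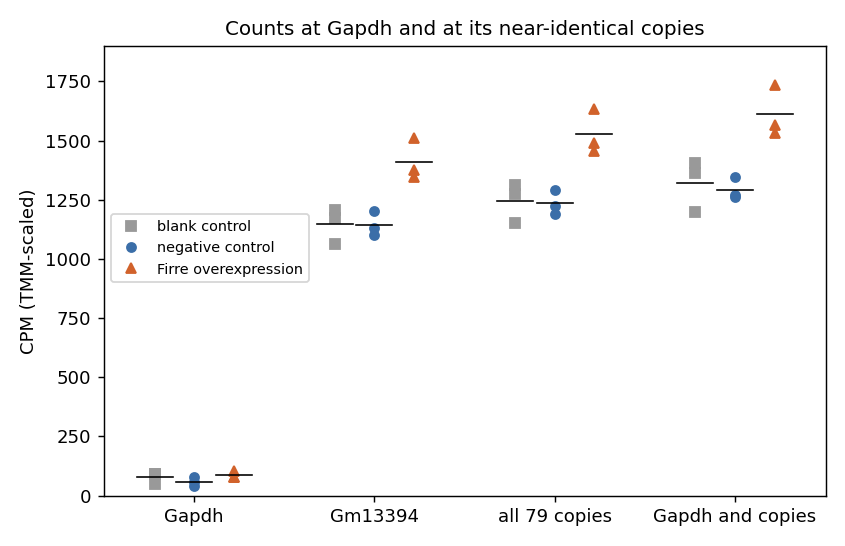
CPM in each library (points) and the mean of each group (bars across the points) at Gapdh, at its most counted copy Gm13394, at all 79 near-identical copies and at Gapdh with its copies. Gapdh itself lies at 38.8 to 103 CPM, whereas the sum is highest in the 3 Firre libraries (1533 to 1736 CPM) and 1200 to 1404 CPM in the controls.

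Below Gapdh, the first ATP-making step is catalysed by Pgk1, which rose slightly from 602 ± 23.5 to 685 ± 2.36 CPM (log2 fold change 0.19, SE 0.05, adjusted p = 9.13e-04). The phosphoglycerate mutases then parted. Pgam2, the muscle form, is encoded on the minus strand of chromosome 11 from 5801640 to 5803733 (mm10). It had 141, 132 and 145 CPM in the blank control, 154, 137 and 142 CPM in the negative control, then 325, 339 and 324 CPM with Firre, a log2 fold change of 1.19 (SE 0.05, adjusted p = 2.21e-18), the highest of the 32. Pgam1, the brain-type form found in most tissues, stood at 303, 316 and 297 CPM with the control vector and 313, 331 and 307 CPM with Firre and was not called (0.05, SE 0.05, adjusted p = 0.337). Its blank control values, 279, 290 and 298 CPM, lay below the Firre range.

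Enolase showed a rise and a fall side by side. Eno3, the muscle form, had 263, 264 and 290 CPM in the blank control, 296, 287 and 275 CPM in the negative control, then 484, 504 and 456 CPM with Firre (log2 fold change 0.75, SE 0.05, adjusted p = 5.85e-14). Eno1, the form of most non-muscle tissues, fell from 778, 734 and 773 CPM to 547, 595 and 591 CPM (-0.40, SE 0.05, adjusted p = 1.19e-08), from 807, 762 and 827 CPM in the blank control. Eno2, the neuronal form, fell from 28.4, 28.2 and 22.6 CPM to 15.5, 18.2 and 16.7 CPM (-0.65, SE 0.11, adjusted p = 1.22e-05), with 21.1, 23.1 and 28.4 CPM in the blank control. Near-identical copies cover 85.6% of the longest coding transcript of Eno1, and its fall was about as large with the 3 copies summed (-0.37, adjusted p = 4.08e-08). Gm4735, the most counted of those copies, fell by 0.45 on the log2 scale, from 166 ± 5.27 to 121 ± 5.90 CPM. Pkm, which encodes the muscle pyruvate kinases, showed 1694, 1682 and 1747 CPM against 1688, 1783 and 1760 CPM and was not called (0.03, SE 0.05, adjusted p = 0.607). Its gene count adds the adult and the fetal splice form, so a change between those forms could not be seen.

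Lactate dehydrogenase interconverts pyruvate and lactate, and tetramers rich in the B subunit are typical of the heart. Ldhb, on the minus strand of chromosome 6 from 142490249 to 142507957 (mm10), had 274, 248 and 260 CPM in the blank control, 258, 255 and 258 CPM with the control vector and 488, 501 and 495 CPM with Firre (log2 fold change 0.95, SE 0.05, adjusted p = 3.42e-17). Ldha, the form that dominates in fast skeletal muscle and many growing cells, went from 1255, 1284 and 1264 CPM to 1155, 1182 and 1162 CPM, with 1282, 1258 and 1371 CPM in the blank control. That small fall was called (-0.12, SE 0.04, adjusted p = 0.0183) and lost its call without Firre replicate 1 (adjusted p = 0.0609) or replicate 3 (adjusted p = 0.0512). The ratio of Ldhb to Ldha per length was 0.433, 0.418 and 0.431 in the negative control and 0.892, 0.894 and 0.899 with Firre. How near this comes to equal levels depends on the length used. Here it was the union of exons, 3310 bases for Ldha, whose longest transcript has 1815. In CPM Ldha stayed higher with Firre, at a mean of 1166 against 495. A near-identical copy, Gm5514, covered 76.8% of the longest coding transcript of Ldhb. With that copy summed the log2 fold change of Ldhb was 0.97 (adjusted p = 1.85e-17, edgeR).

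The monocarboxylate transporters carry lactate and pyruvate across the plasma membrane. Slc16a1 encodes MCT1, the main lactate importer of heart, and rose from 87.0, 95 and 102 CPM in the negative control to 147, 142 and 146 CPM (log2 fold change 0.61, SE 0.06, adjusted p = 4.89e-09), with 81.7, 99.6 and 86.9 CPM in the blank control. Slc16a3 encodes MCT4, the exporter of highly glycolytic cells, and fell from 96.5, 109 and 112 CPM to 66.4, 67.3 and 63.8 CPM (-0.68, SE 0.06, adjusted p = 3.46e-11), with 106, 110 and 119 CPM in the blank control. The balance of the pair widened: per length Slc16a1 was 1.08 ± 0.0267 times Slc16a3 in the negative control and 2.65 ± 0.111 times with Firre (SD, n = 3).

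Pyruvate dehydrogenase kinases switch off the enzyme that sends pyruvate into the mitochondria. Pdk2, on the minus strand of chromosome 11 from 95026258 to 95041354 (mm10), had 92.2, 88.0 and 97.4 CPM in the blank control, 92.0, 89.1 and 83.8 CPM in the negative control, then 173, 179 and 162 CPM with Firre (log2 fold change 0.96, SE 0.05, adjusted p = 1.90e-15). Pdk3 rose from 29.4, 33.1 and 34.9 CPM to 39.9, 41.8 and 41.7 CPM (0.34, SE 0.07, adjusted p = 1.58e-04), with 32.4, 34.5 and 36.5 CPM in the blank control. Pdk1, a known target of the hypoxia response, stood at 72.1, 79.0 and 67.3 CPM in the blank control, 74.9, 83.8 and 79.4 CPM with the control vector and 78.4, 70.2 and 72.7 CPM with Firre, and was not called (-0.11, SE 0.06, adjusted p = 0.152). With library totals in place of TMM factors Pdk1 was called lower (-0.16, adjusted p = 0.0324). Pdk4, outside the 32 but the form most responsive to fasting and fatty acids, rose from 25.1, 22 and 25.2 CPM to 82.2, 105 and 90.2 CPM (1.94, SE 0.08, adjusted p = 5.31e-17).

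Since several families held a form that rose beside another that did not, each isozyme was also expressed as a share of its family within the library, after division of its counts by the exon length of the gene. Such a share does not depend on how libraries are scaled. Among 27 isozymes in 10 families the Firre and negative control libraries did not overlap for 24, of which 11 had a higher and 13 a lower share. Shares in a family add up to the whole, and in families of only 2 members they mirror each other, so these counts are not of independent genes. A lower share need not be a lower level: Pfkl and Pdk3 lost share though both were called higher. With 3 libraries against 3 the exact two-sided permutation test cannot go below p = 0.1, which these 24 reached (0.1125 after Benjamini-Hochberg adjustment over the 27), so none could pass 0.05. Between the negative and the blank control 5 of the 27 shares did not overlap, those of Hk3, Aldoa, Aldoc, Eno1 and Eno3. Eno3 had 50.5% in the blank and 52.8% in the negative control, and Eno1 had 47.8% and 45.4%. Such shares were computed for these families only, so no value for all genes stands beside the counts.

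Several muscle and heart forms gained share, though Ldhb, Slc2a4 and Pfkfb2 were still not the largest form of their family. Some other forms known from muscle did not gain: Ldha went from 70.1% to 52.8%, and the shares of Hk2 and Pfkfb1 overlapped. Slc16a3, the partner of Slc16a1, fell from 48.2% to 27.4%. The share of Slc16a1 went from 51.8% ± 0.62 to 72.6% ± 0.84, that of Eno3 from 52.8% ± 1.09 to 71.4% ± 1.41 and that of Pgam2 from 52.7% ± 2.0 to 71.0% ± 0.304 (SD, n = 3). Which form is the largest depends on the length used. Eno1 was divided by 5379 bases of exon, while its longest transcript has 2027, and its copies were left out. In CPM Eno1 stayed above Eno3, at 762 against 286 in the negative control and 578 against 481 with Firre. Ldhb went from 29.9% ± 0.384 to 47.2% ± 0.0992 and Slc2a4 from 27.4% ± 0.724 to 37.9% ± 1.42. The gain of Ldhb, 17.3 points here, was 15.1 points with the longest transcript length and 12.9 points without division by length. Pfkm rose less, from 44.8% ± 0.813 to 50.9% ± 0.667. Of the regulators, Pdk2 went from 55% ± 2.72 to 68.0% ± 1.20 and Pfkfb2 from 16.3% ± 1.19 to 27.8% ± 1.23, while Pfkfb3 dropped from 66.9% ± 2.47 to 54.5% ± 0.410. The Pdk2 share is taken among Pdk1, Pdk2 and Pdk3. It leaves out Pdk4, which had a mean of 24.1 CPM in the negative control and 92.5 CPM with Firre. The hexokinases Hk1 and Hk2 stayed near their proportions: Hk1 had 57.1% ± 0.280 and 58.5% ± 1.45 and Hk2 41.9% ± 0.104 and 41.4% ± 1.44, the latter with overlap. Hk3 went from 0.948% ± 0.181 to 0.0249% ± 0.0167. Shares of Pfkp (26.4% and 25.5%) and Pfkfb1 (7.41% and 6.85%) overlapped too, and Pfkp changed sign when counts were not divided by length (0.17 points higher).

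**Figure D3:**
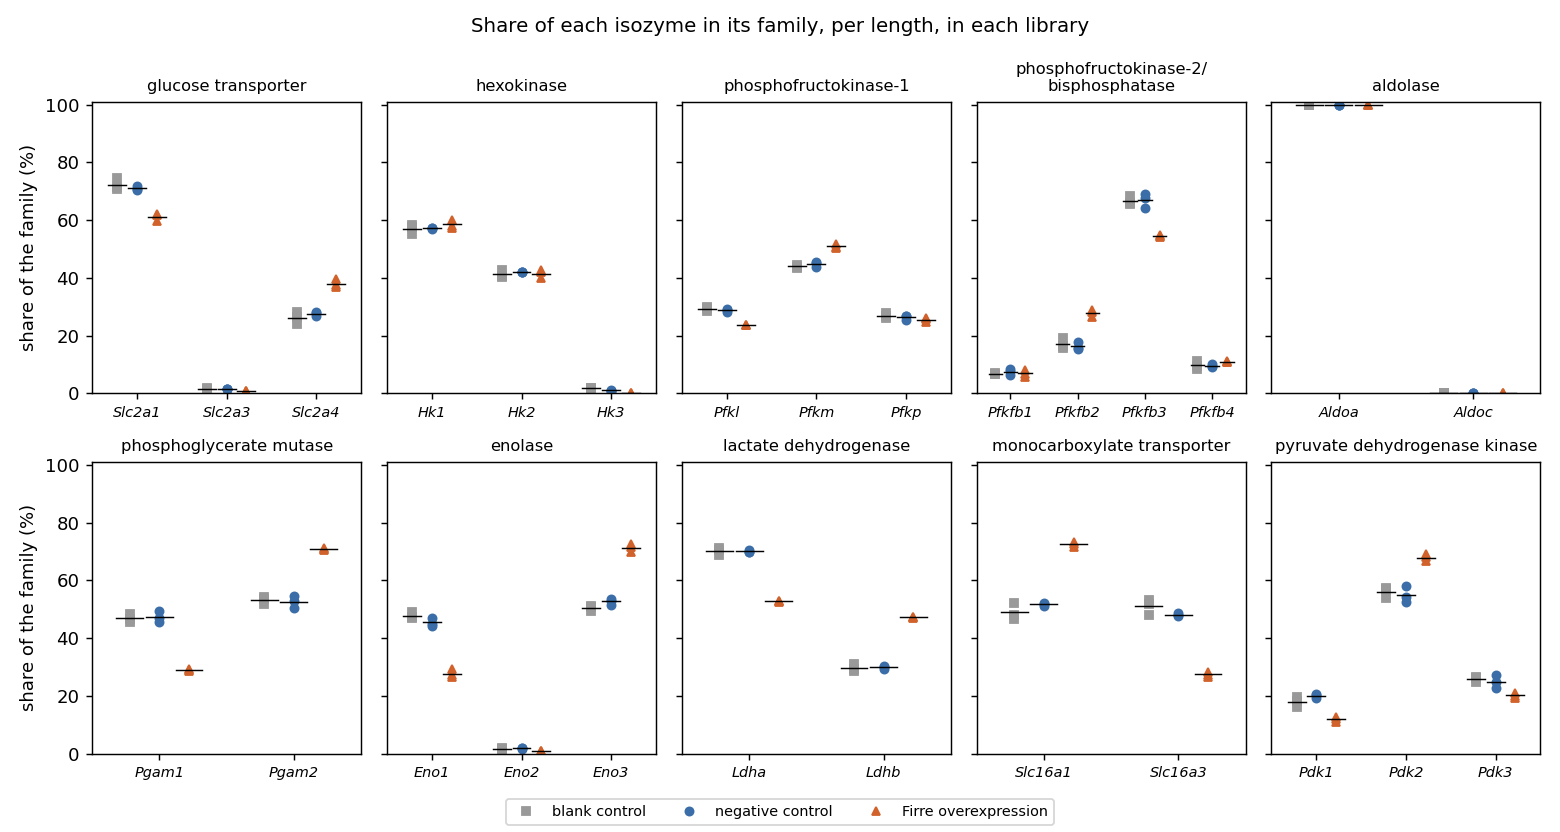
Share of each isozyme in its family, in percent of the family's counts per exon length, in every library (points) with the group mean (line across the points), in 10 panels. The Firre libraries (triangles) separate from both controls in the panels of phosphoglycerate mutase, enolase, lactate dehydrogenase and monocarboxylate transporter, and overlap them for Hk2.

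Levels could be ranked between genes only per length. In CPM per kilobase of exon the negative control ran from Aldoa (579 ± 20.3), Ldha (383 ± 4.51) and Pkm (341 ± 6.95) at the top to Hk3 (0.846 ± 0.153) and Pfkfb1 (0.738 ± 0.0925) at the bottom, with Slc2a3 (0.887 ± 0.0510) and Hk3 within each other's spread. With Firre the order began with Aldoa (769 ± 18.7) and Pgam2 (392 ± 10.3), which moved from place 6 to place 2. Next came Ldha (352 ± 4.19) and Pkm (349 ± 9.99), which were within each other's spread. Ldhb (315 ± 3.98) moved from place 8 to place 5. In the negative control Pgam2 (172 ± 10.3), Eno3 (164 ± 6.07) and Ldhb (164 ± 1.16) had been neighbours that did not differ beyond their spread. Gapdh (14.2 ± 5.0) was placed by its own line, without the counts at its copies. All places rest on the union of a gene's exons as its length. For Pgam2 this is 840 bases, as long as its longest transcript. For Pkm it is 5001 bases against 2432 and for Ldha 3310 against 1815. Places by transcript length were not computed, so the places of Pgam2 and Ldhb are given for this length only.

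The control vector alone moved none of the 32 past the threshold. In the negative against the blank control edgeR called 0 of 32 (2 at an unadjusted p under 0.05, Hk3 and Aldoc) and DESeq2 also called 0, beside 0.0576% of all genes in edgeR. Log2 fold changes ran from -0.84 in Hk3 (SE 0.20, adjusted p = 0.136) to 0.47 in Aldoc (SE 0.20, adjusted p = 0.513), with a median of 0.03. Without the low-count filter Hk3 was called lower (-0.84, adjusted p = 0.0176). Groups did not overlap for 3 genes, Aldoc, Hk3 and Pfkm, a smaller share than the 13.1% of all genes. Summed macrophage markers were 132 to 149 CPM in the blank control and 104 to 115 CPM in the negative control, moving in the direction of Hk3, and their part in its difference was not tested.

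Against the blank control, a comparison that uses the same Firre libraries and so gives no separate support, 25 of 32 genes were called (56.3% of all genes), 18 of them higher (27.3%) and 7 lower (28.9%). The genes with the smallest p were Pgam2 (log2 fold change 1.24, SE 0.05, adjusted p = 8.59e-19), Ldhb (0.92, SE 0.05, adjusted p = 5.89e-17), Hk3 (-5.53, SE 0.34, adjusted p = 1.32e-14), Pdk2 (0.89, SE 0.06, adjusted p = 1.14e-14), Eno3 (0.82, SE 0.05, adjusted p = 8.14e-15) and Pfkm (0.73, SE 0.05, adjusted p = 4.66e-14). Side by side, the values against the negative control for these genes were 1.19, 0.95, -4.69, 0.96, 0.75 and 0.65. Pgam1 was called against the blank control and not against the negative control (0.13, SE 0.05, adjusted p = 0.0157), a call lost without blank control replicate 1 (adjusted p = 0.0589) or Firre replicate 2 (adjusted p = 0.0722). For Aldoc the reverse held.

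Promoters are shown for Hk3, Pgam2, Pdk2 and Ldhb, the 4 called genes with the largest fold changes at a mean of at least 2 CPM, to let the sequence before each start be read beside its change. Each is the 250 bases before a RefSeq start on GRCm38.p6, 5′ to 3′ on the minus strand: chr13:55021386-55021635, chr11:5803797-5804046, chr11:95041372-95041621 (1 of 2 starts of Pdk2) and chr6:142507958-142508207. Capitals mark the matches to the motifs searched on both strands.
Hk3: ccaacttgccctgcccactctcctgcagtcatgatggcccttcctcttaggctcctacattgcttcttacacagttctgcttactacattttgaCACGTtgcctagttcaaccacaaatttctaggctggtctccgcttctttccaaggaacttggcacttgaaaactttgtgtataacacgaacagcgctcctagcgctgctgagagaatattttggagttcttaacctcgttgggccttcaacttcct
Pgam2: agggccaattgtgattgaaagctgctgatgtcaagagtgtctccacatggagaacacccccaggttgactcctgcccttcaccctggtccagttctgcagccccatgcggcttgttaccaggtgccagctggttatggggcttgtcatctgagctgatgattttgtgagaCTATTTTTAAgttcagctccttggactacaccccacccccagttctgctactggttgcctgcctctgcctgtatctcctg
Pdk2: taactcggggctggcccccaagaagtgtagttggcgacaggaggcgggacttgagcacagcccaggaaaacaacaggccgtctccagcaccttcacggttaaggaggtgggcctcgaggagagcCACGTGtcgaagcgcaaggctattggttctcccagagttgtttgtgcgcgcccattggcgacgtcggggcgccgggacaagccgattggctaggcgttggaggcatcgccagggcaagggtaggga
Ldhb: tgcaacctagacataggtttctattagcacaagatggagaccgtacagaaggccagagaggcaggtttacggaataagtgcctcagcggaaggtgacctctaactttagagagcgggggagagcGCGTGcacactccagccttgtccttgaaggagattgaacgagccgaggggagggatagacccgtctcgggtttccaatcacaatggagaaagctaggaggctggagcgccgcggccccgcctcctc
The capitals are ACGTG, the core of the hypoxia response element, read on the other strand in Hk3; the MEF2 motif, named for a muscle transcription factor family, in Pgam2; the E-box CACGTG in Pdk2, which contains ACGTG on both strands; and GCGTG, the other hypoxia response core, in Ldhb.

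Over 250 bases before to 50 after the start, the RefSeq table held 49 promoters that matched 30 of the 32 genes; Slc2a3 and Slc2a4 had no match. ACGTG was present in 44.9% of these 49, against 19.6% of all 32851 promoters of the table, and in genes that rose (Pfkm, Pdk2, Hk1) as well as in genes that fell (Ldha, Pfkfb3, Slc16a3, Hk3). GCGTG was in 51.0% against 32.4%, and the E-box CACGTG, which overlaps ACGTG, in 12.2% against 7.15%. The GC box GGGCGG was in 49.0% against 35.7%. AAGGTCA, a site of estrogen-related receptors, was in 6.12% against 4.72%, the MEF2 motif in 4.08% (Pgam2 and Pfkfb1) against 3.19%, the CArG box in 2.04% (Ldha) against 1.63% and the NRF1 motif in 2.04% (Pgam1) against 0.971%. Starts of 1 gene overlap, and a match is a description of letters, not a bound site.

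The wider pathway was read through 6 further lists, whose counts stand beside the 27.5% of all genes that rose and the 28.4% that fell. Of the other genes of glucose uptake and glycolysis 25 of 34 were tested, and 11 (44%) rose and 6 (24%) fell with Firre (median log2 fold change 0.02). After Pdk4 the smallest p belonged to Emb (-1.36, SE 0.11, adjusted p = 3.26e-12), an accessory protein of lactate transporters, and Pgm1 (0.50, SE 0.05, adjusted p = 2.45e-10), which links glycogen to glycolysis. Mpc1 (0.55) and Mpc2 (0.75), which form the mitochondrial pyruvate carrier, both rose and were chosen after their values were seen. Of 15 genes of GLUT4 trafficking 6 (40%) rose and 2 (13.3%) fell (median 0.09). Sort1, which sorts GLUT4 vesicles, rose from 105 ± 5.63 to 229 ± 7.68 CPM (1.13), and Tbc1d4 (1.05) and Tbc1d1 (0.62), the Rab regulators that hold GLUT4 inside the cell, rose as well. The 2 that fell were Rac1 (-0.35) and Cltc (-0.11, adjusted p = 0.0467), a count that was 1 with DESeq2.

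Glycogen metabolism had the most rises of the 6 lists, 17 of 20 (85%), and a median of 0.54. The 1 gene called lower was Gaa, the lysosomal glucosidase (-0.15), a call lost without negative control replicate 3, Firre replicate 1 or Firre replicate 3. Pygb, a glycogen phosphorylase named for brain and present in heart, rose from 209 ± 9.61 to 514 ± 15.7 CPM (1.30), Pygm, the muscle phosphorylase, from 365 ± 18.0 to 713 ± 28.3 CPM (0.97), and Ppp1r3c, which targets a phosphatase to glycogen, from 22 ± 1.8 to 68.1 ± 3.54 CPM (1.63). In the pentose phosphate and hexosamine pathways, which branch off glycolysis, 4 of 15 rose (26.7%; Pgls, Oga, Ogt and Taldo1, by 0.15 to 0.19) and 7 fell (46.7%; median -0.13). The count of 4 became 1 with library totals and 2 without negative control replicate 2. H6pd fell by 0.92, Gfpt2, the entry enzyme of hexosamine synthesis, by 0.89 and Tkt, transketolase, by 0.72 on the log2 scale. Of 16 hypoxia targets outside glycolysis 2 (12.5%) rose (Vegfa, 0.23, and Mxi1, 0.42) and 9 (56.2%) fell (median -0.18), among them Ndrg1 (-0.87), Adm (-0.46) and P4ha1 (-0.34).

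Regulators of glycolytic genes rose in 14 of 25 cases (56%) and fell in 4 (16%; Epas1, Myc, Max and Trp53), with a median of 0.29. Txnip, an arrestin that restrains glucose uptake, rose from 89.8 ± 3.23 to 200 ± 4.32 CPM (1.15), Prkaa2, a catalytic subunit of the energy sensor AMPK, from 75.5 ± 4.79 to 180 ± 11.3 CPM (1.26), and Ppargc1a, a coactivator of mitochondrial genes, from 32.5 ± 1.79 to 84.8 ± 5.62 CPM (1.38). Beside these lists stand the cell markers. Of the 32 genes of glycolysis and glucose uptake, 4 (Eno3, Ldhb, Pdk2 and Pgam2) exceeded the cardiomyocyte marker median of 0.69. Among the genes that fell, Hk3 dropped further than the fibroblast median (-1.01) and the other 7 less, in libraries where those markers and the endothelial (-1.06), smooth muscle (-1.28) and epicardial (-1.86) ones were also lower; their part in these results was not tested.

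**Figure D4:**
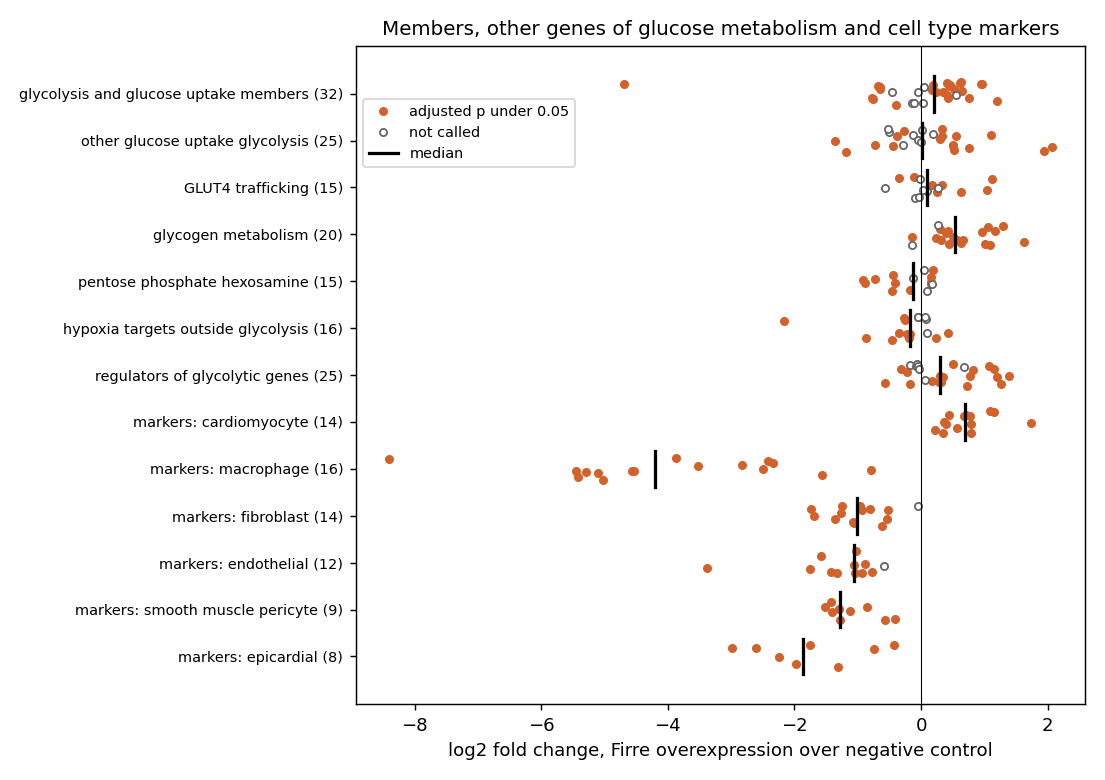
Log2 fold change of Firre overexpression over the negative control for each tested gene (points) of the 32 glycolysis and glucose uptake genes, 6 further lists and the cell type markers, with the number tested in brackets; filled points have an adjusted p under 0.05 (edgeR) and the black line is the list's median. Medians are 0.21 for the 32 genes, 0.54 for glycogen metabolism and 0.69 for cardiomyocyte markers, and the point furthest to the left is C1qa, which has 0 counts with Firre, so that its fitted value (-8.40) is not a bound.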

How the data were processed

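RNA-seq counts from 9 mouse cardiomyocyte libraries were used. The authors deposited raw, unnormalized counts for each Ensembl gene. The submitters' processing notes name STAR, featureCounts, FastQC, Trimmomatic and the mm10 build, with no versions. Per the labels' protocols, ribosomal RNA was depleted and libraries were directional, although the molecule is labelled polyA RNA. The table ends with lines in the manner of HTSeq, so the counting program and its use of strand are not settled, and overlapping genes are uncertain. Lines naming no gene held 16.3% to 17.4% of counts and were left out.

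Symbols came from GENCODE M21. All 9 libraries entered 1 fit with edgeR 4.0.16 (R 4.3.3; TMM, filterByExpr with a minimum count of 10 and total of 15, robust quasi-likelihood F test, Benjamini-Hochberg over 15633 genes, threshold 0.05). SE is the size of the log2 fold change divided by the root of F. Replicates differed by more than sampling noise (chi-square per degree of freedom 3.27 to 7.39). Every library value is given for those of the 32 genes called with a log2 fold change of at least 0.5 in size and for their families. The 6 genes with the smallest p against the blank control and, from each further list, the 3 with the smallest p are named with means or fold changes. The members and lists were chosen with earlier results of these data known. Near-identical copies were found with blastn. Near-identical transcripts of other genes also covered 68.8% of the longest coding transcript of Pgk1, 65.5% of Pkm, 55.0% of Ldha and 50.2% of Gpi1. With copies summed their log2 fold changes were 0.19, 0.03, -0.12 and 0.44. Exon bases shared with other genes made up 15.3% of Pkm and 11.5% of Gpi1. The alternatives were RLE, upper-quartile or no scaling factors, no filter, DESeq2 1.42.0, separate fits, a replicate block, other lengths and single libraries left out. Scripts were tested on simulated data.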

Additional observations from a re-analysis of the deposited data

How the results depend on the processing

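Across the alternatives run for Firre overexpression against the negative control, 17 to 18 of the 32 genes rose and 7 to 10 fell, the latter reaching 10 with library totals alone; 22 to 25 of 27 isozyme shares did not overlap. Signs turned only in genes that were not called: with library totals Pgam1 (-0.00114) and Pkm (-0.025). Against the blank control this held for Pdk1 (-0.033 with library totals, -0.021 without Firre replicate 1, -0.038 without blank control replicate 3), and without 1 blank control library Pfkfb4, Pkm and Gapdh turned as well. With 1 library left out Pdk1 ran from -0.038 to 0.082, Pfkfb4 from -0.124 to 0.062, Pkm from -0.087 to 0.017 and Gapdh from -0.0854 to 0.304. Slc2a1 became called with library totals (-0.14) or without blank control replicate 2 (-0.14), and Pgam1 lost its call with library totals (0.08). Between the 2 controls, without the low-count filter 1 of the 32 (Hk3) was called and 98 of all genes, DESeq2 called 28 of all genes, and leaving out 1 library gave 0 (without blank control replicate 1) to 55 (without blank control replicate 2) in place of 9; the cause was not tested. The count of 2 GLUT4 trafficking genes that fell became 1 under several alternatives. Counts are few for Hk3, which limits its fold change.

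The correlation of deviations between libraries of different groups was -0.040 to 0.028 for equal replicate numbers and -0.052 to 0.063 for unequal ones. The labels do not say whether equal numbers share an animal or batch, and 3 libraries per group are too few to settle it. With the replicate number as a block, 17 of the 32 genes rose and 8 fell as before, with 8592 of all genes called for Firre against the negative control (8747 without it) and 7 between the controls; the counts of calls against the blank control stayed within 1.5 times.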
